A study of Rattus norvegicus with 2 samples.

Results

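The transcript of serum albumin, Alb, was followed in RNA-seq libraries of cultured cortical neurons from E18 Sprague Dawley rat embryos. It is 1 gene of the 16756 in the deposited tables and was chosen by its identifier, ENSRNOG00000002911, with its values in these libraries already known. The neurons had been freed of meninges, grown on poly-L-lysine, first with serum and then in Neurobasal medium with B27, and given either the NC siRNA, a universal control duplex, or the CDH12 siRNA against Cadherin-12, for 36 h. Each treatment is represented by 1 library, so no difference below has a replicate check, and no p-value is given for Alb. Both groups share strain, age, culture and siRNA delivery, which the study's methods give as electroporation. How many embryos or dishes went into a library is not given in the sources used here. The pairing of the identifier with Alb comes from the rule that chose the gene. The deposited tables carry no symbols, and none of their 16756 identifiers matched the RefSeq gene table (0 matches). For that reason Cdh12 itself, the neuronal markers behind the label of these cultures, and the other plasma protein and liver genes were not analysed here.

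Albumin is the main protein of blood plasma, where it holds water in the vessels and carries fatty acids, hormones and drugs. Its mRNA is made chiefly by hepatocytes of the liver, and in the embryo also by the yolk sac; it is no marker of cortical neurons. The gene stands beside those of its relatives alpha-fetoprotein (Afp) and afamin (Afm), and in the RefSeq annotation of GRCr8 the next protein-coding genes are Afp and then Afm on one side and Ankrd17 on the other. Liver-specific transcription of Alb is known to run through a short promoter bound by the liver factor HNF1 and by factors that recognise CCAAT. The 186 bases below come from this region of the rat genome (RefSeq, GRCr8, chr14:17907044-17907229, minus strand, 5′ to 3′). They are limited to the part outside the annotated span of the gene. They end at position -65 from the start site of the RefSeq promoter table, so the bases next to that site are not shown. Capitals mark CCAAT and GTTAAT, one arm of the palindromic HNF1 recognition sequence.
Alb promoter: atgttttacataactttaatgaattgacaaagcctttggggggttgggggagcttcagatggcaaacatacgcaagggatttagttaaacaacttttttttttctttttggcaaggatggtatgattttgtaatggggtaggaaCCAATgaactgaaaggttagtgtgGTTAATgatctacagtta

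Both strands were searched for GTTAAT, for the full HNF1 palindrome, which joins that arm over any 1 base to its reverse complement, for CCAAT and for the TATA box letters TATAAA. The arm occurred 1 time, starting at position -82 from the start site of the RefSeq promoter table. It was present in the same stretch of 5.11% of the 33469 rat promoters in that table. The CCAAT letters occurred 1 time, starting at -106, and were present in 26.8% of the promoters. The full palindrome had 0 matches here and was present in 0.0% of the promoters, so its absence does not set Alb apart. The TATA box letters also had 0 matches, and 9.39% of the promoters held them in the same stretch. This says only that these letters are not in this window. The window ends at position -65, so the search cannot tell whether TATAAA lies closer to the start site, in Alb or in other promoters. A match describes the sequence and is no measurement of binding, and the RNA-seq libraries hold no readout of the promoter other than the transcript itself.

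Alb reads were present in both libraries and were more numerous with the CDH12 siRNA. The NC siRNA library held 126 Alb reads, with an exact 95% Poisson interval from 105.0 to 150.0 reads. The CDH12 siRNA library held 643 reads, with an interval from 594.3 to 694.7 reads. The intervals do not overlap. They cover counting error only, since no molecular identifiers are named and reads may be copies of 1 molecule.

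The depths of the libraries were alike, 15500488 counted reads for the control against 13699612 for the CDH12 siRNA, so depth favored the library with fewer Alb reads. Scaled to depth, Alb stood at 8.13 reads per 1000000 counted reads (RPM) with the NC siRNA (interval from 6.77 to 9.68 RPM) and at 46.9 RPM in the CDH12 siRNA library (43.4 to 50.7 RPM). As shares of all reads these are 0.000813% (95% Wilson interval from 0.000683% to 0.000968%) and 0.00469% (0.00434% to 0.00507%). Alb was thus a small part of either library. A gene with 3 reads would stand at 0.194 and 0.219 RPM, well under Alb in both.

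**Figure D1:**
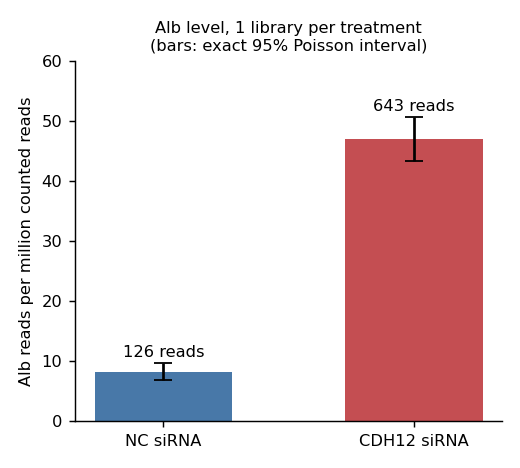
Alb level in RPM of counted reads (y axis) in the single library of each treatment; the error bars are exact 95% Poisson intervals and the numbers above them the Alb reads. The NC siRNA library stands at 8.13 and the CDH12 siRNA library at 46.9 RPM, and the intervals do not overlap.

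The authors' values, reads divided by 1 size factor per library and called normalized counts here, were 119.0 for Alb in the control library and 681.1 in the CDH12 siRNA library. Their ratio was 5.73-fold, with a 95% Wilson interval for counting error from 4.73-fold to 6.93-fold, or a log2 ratio of 2.52 (2.24 to 2.79). On the log2(normalized count + 1) scale used for all genes below, it was 2.51. Of the 769 Alb reads, 83.6% came from the CDH12 siRNA library, which held 46.9% of all reads. At the scale of that library, the NC siRNA level corresponds to 112.3 reads (93.6 to 133.7), which leaves 530.7 reads above it. More cells that carry Alb mRNA and more Alb mRNA per cell cannot be told apart in such bulk libraries, and the siRNA given, the dish and the preparation of the library all differ together here, so their parts in the difference cannot be told apart either.

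Ordered by reads, which are not corrected for gene length, Alb moved from the lower to the upper part of the list. In the NC siRNA library it ranked 9897 of 16756 genes, and 59.1% of the genes had more reads. In the CDH12 siRNA library it ranked 5057, and 30.2% had more reads. The counting interval of the reads places these ranks between 9604 and 10237 and between 4780 and 5377, respectively. The change amounts to 4840 places. Against the median gene of the same library, with 259 and 232 reads, Alb had 0.487 times as many reads in the former library and 2.77 times as many in the latter. The gene with the most reads in each library remained far above it, at 151219 and 135851 reads.

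**Figure D2:**
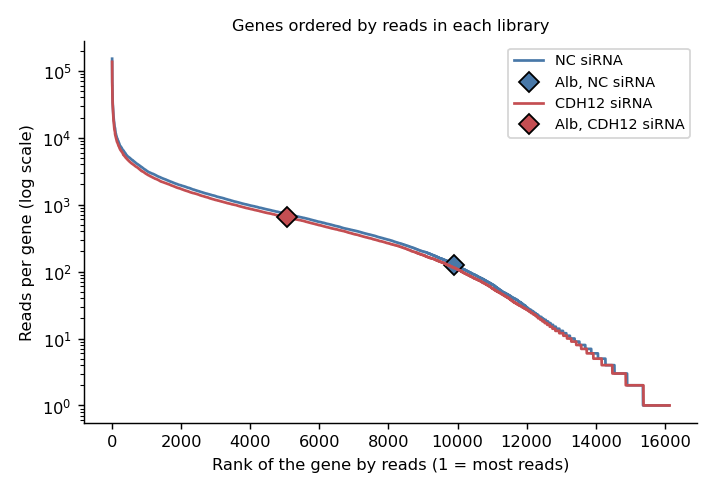
Reads per gene (y axis, log scale) against the rank of the gene by reads (x axis) in each library, drawn as 1 line per library over the genes with at least 1 read, with Alb as a diamond. The lines nearly coincide, while Alb sits at rank 9897 in the NC siRNA library and at rank 5057 in the CDH12 siRNA library.

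Genes that shared the level of Alb in one library were then followed into the other. There were 339 other genes with 114 to 138 reads in the NC siRNA library, within 10% of Alb. In the CDH12 siRNA library their reads ran from 56 to 197, with a median of 111. None of the 339 reached the 643 reads of Alb. In the opposite direction, 765 other genes lay within 10% of Alb in the CDH12 siRNA library, with 579 to 707 reads. In the NC siRNA library they had between 357 and 1091 reads, with a median of 716, all above the 126 reads of Alb. Since Alb was chosen for its difference between these libraries, its place outside both groups describes the size of that difference and is no test of it.

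**Figure D3:**
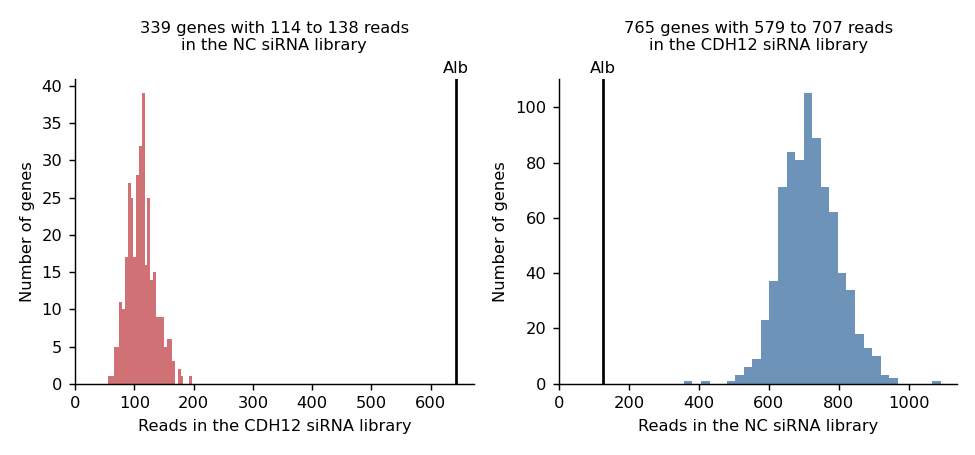
Histograms of the number of genes (y axis) by their reads in the other library (x axis), for the 339 genes at the NC siRNA level of Alb (left) and the 765 genes at its CDH12 siRNA level (right); the vertical line is Alb. In the left panel the genes end at 197 reads and Alb stands at 643, and in the right panel they begin at 357 reads and Alb stands at 126.

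Few genes of the libraries differed by more than 2-fold. At least 20 reads in both libraries together were counted for 13317 genes. Of these, 150 (1.13%) were over 2-fold higher with the CDH12 siRNA and 106 (0.796%) were over 2-fold lower. Alb is 1 of the 150, and its log2 ratio was the 7th highest of the 13317. Low read numbers widen the ratios. The 2054 genes with 20 to 99 reads had a scaled median absolute deviation of 0.556 in the log2 ratio, and 4 of the 6 genes above Alb were among them. The 4299 other genes with 385 to 1538 reads, a range around the 769 reads of Alb, had a deviation of 0.154. Their middle 90% lay between -0.30 and 0.26, and their extremes were -1.69 and 1.22, against 2.51 for Alb.

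Among the 11263 genes with at least 100 reads, 19 (0.169%) were over 2-fold higher with the CDH12 siRNA, and Alb had the 3rd highest log2 ratio. Among the 7015 genes with at least as many reads as Alb, its ratio was the highest, and 4 others were over 2-fold higher. Alb gained 38.8 RPM between the NC siRNA and the CDH12 siRNA library, the 51st gain of the 8833 genes with a higher value in the latter. Of the 19 genes, 2 others gained more. Together the 19 genes had 2896 and 7984 reads in the NC siRNA and CDH12 siRNA libraries, and Alb supplied 4.35% and 8.05% of them.

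**Figure D4:**
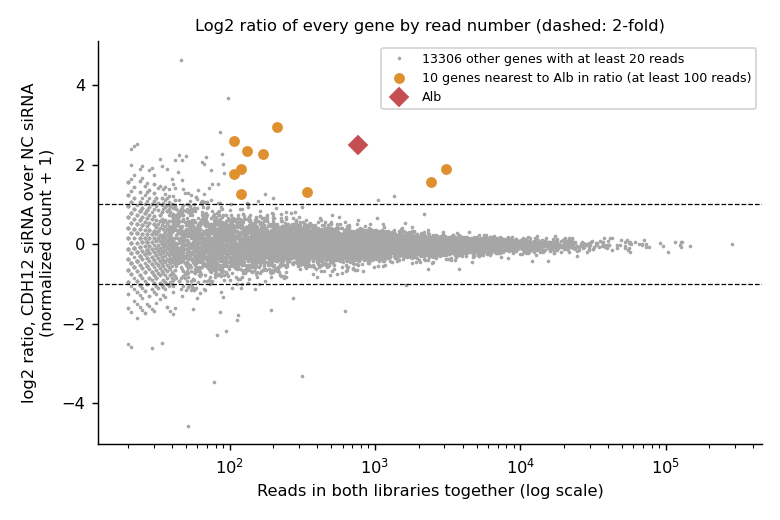
Log2 ratio of normalized count + 1, CDH12 siRNA over NC siRNA (y axis), against reads in both libraries together (x axis, log scale), 1 point per gene with at least 20 reads; the dashed lines mark 2-fold, orange points the 10 genes nearest to Alb in ratio and the red diamond Alb. Alb stands at 769 reads and 2.51, above every gene with as many reads or more.

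With 2 libraries, the likeness of another gene to Alb reduces to the distance between their log2 ratios. The 10 nearest of the 11262 other genes with at least 100 reads had log2 ratios from 1.25 to 2.96, and only 4 of them lay within 0.5 of Alb. They had between 107 and 3071 reads in both libraries together, with a median of 150.0, so most were counted less deeply than Alb. The nearest, ENSRNOG00000047281, went from 16 reads in the control library to 91 under the CDH12 siRNA, a log2 ratio of 2.60. The next, ENSRNOG00000010478, had 23 and 108 reads and a log2 ratio of 2.35. Of the 10 genes, 2 had at least as many reads as Alb. One went from 711 to 2360 reads, a log2 ratio of 1.90, and the other from 666 to 1773 reads, a log2 ratio of 1.58. Likeness over 2 libraries says nothing of shared function or control.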

How the data were processed

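RNA-seq of 2 libraries was used, 1 per treatment, with treatments taken from the sample labels. The authors trimmed reads with cutadapt 1.15, counted them per gene with HTSeq 0.9.1 and normalized with DESeq 1.30.0, per the submitters' processing notes; the paper's methods give another HTSeq version. The aligner, genome build and annotation are not given in the sources used here. The deposited signal per gene is thus a read count over the size factor of its library. The lowest value above 0 in each library (0.944 and 1.06) was taken as 1 read and all values were divided by it, and 100% of the values were whole to within 0.001 reads.

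Levels, ranks and ratios were computed with numpy 2.4.6, pandas 2.3.3 and scipy 1.17.1, with a pseudocount of 1 normalized count on the log2 scale. No p-value is given for Alb, although the count tests below ran over all 16756 genes and so included it, because the gene, the gene lists and the rules were chosen with earlier results of these data known. Planned count tests on the recovered reads used R 4.3.3. The edgeR 4.0.16 exact test, with the dispersion of both libraries as 1 group and Benjamini-Hochberg adjustment, called 29 genes over 2-fold, and the DESeq2 1.42.0 Wald test called 10. Both were tested on simulated data and compare 2 libraries, not treatments. Genes were to be named as Alb, Cdh12, listed plasma protein, liver and cell type genes, and the 10 genes nearest to Alb in ratio. The listed genes other than Alb could not be found without symbols. Of the 10 nearest genes, which have identifiers but no symbols here, only the first 2 are printed by identifier, and the others are given by their values. Bands of 10% around the level of Alb, and the range of reads around it, were chosen after seeing the data.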

Additional observations from a re-analysis of the deposited data

How the results depend on the processing

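The log2 ratio of Alb lay between 2.47 and 2.52 under 4 alternatives, namely total reads, TMM, no pseudocount and a pseudocount of 5, all within its counting interval. Among genes with at least 20 reads only, 74.3% of genes had more reads than Alb in the control library and 38.0% in the CDH12 siRNA library, because the genes left out all had fewer reads. The number of genes over 2-fold higher and lower (150 and 106) became 1120 and 657 with at least 1 read. With at least 100 reads it became 19 and 12. The share over 2-fold higher was 1.13% of the 13317 genes with at least 20 reads and 0.169% of the 11263 with at least 100. Of the 149 higher genes other than Alb, 131 had 20 to 99 reads, as had 94 of the 106 lower genes. A pseudocount of 5 gave 88 and 53, the edgeR exact test with adjusted p 18 and 11, and the DESeq2 Wald test 7 and 3; the cause was not tested. A pseudocount of 0.1, total reads and TMM kept both numbers within 1.5 times.

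No paired analysis was possible because there was 1 library in each group, and replicates were not left out for the same reason. Ranks per gene length and the plasma protein list were not run, since identifiers had no symbols here.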
